A study of Homo sapiens with 4 samples.

Results

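Interferon signalling was followed through 9 genes of 63241 in the deposited table, chosen by name: STAT2 and IRF9, IRF1 and IRF3, the RNA sensor gene IFIH1, and the interferon-stimulated genes ISG15, IFIT1, IFI6 and IFI27. Each name matched 1 Ensembl entry by its current symbol. The cells were 22Rv1, an established human line described as castration-resistant prostate cancer. There were 2 libraries from cells given the DMSO vehicle and 2 from cells given 40 nM JMC45, a compound described as a CDK9 degrader that the series title calls D45, all taken at 12 h. No interferon or other stimulus is named for either group. Whether the libraries of a group came from separate cultures is not stated. The p-values therefore rest on the spread between 2 libraries per group that may be technical replicates. Each gene's spread was moderated over all genes in the fit.

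Interferons are secreted in response to foreign nucleic acid, which cells detect through sensors such as MDA5, the product of IFIH1. The sensors activate IRF3, which drives interferon genes. Type I interferon then acts through a receptor and JAK kinases to assemble the ISGF3 complex, which contains STAT2 and IRF9 and binds the interferon-stimulated response element (ISRE) in the promoters of genes such as ISG15 and IFIT1. Type II interferon acts through a different element, the gamma-activated site (GAS), known from the promoter of IRF1. Transcription of many such genes depends on release of paused RNA polymerase II, the step that CDK9 controls.

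The promoters of 8 of the 9 genes had an entry in the RefSeq table (GRCh38.p14), and IRF3 had none. In the 250 bases before the annotated start, the ISRE core GAAANNGAAA was searched on both strands (TTTCNNTTTC on the other) and found in 5 genes, IFIH1, ISG15, IFIT1, IFI6 and IFI27, against 3.02% of 35116 windows of the same length. The palindromic GAS core TTCNNNGAA was found in IRF1, IRF9 and IFI27, against 6.57% of windows, and in IFI27 its match overlaps both ISRE matches. STAT2 had neither. These windows are printed because they place the same element before a highly expressed gene (ISG15), before 2 genes with a vehicle mean under 1 TPM (IFIT1 and IFI6), before the sensor gene and, for GAS, before IRF1. Capitals mark ISRE core matches, and in IRF1 the GAS core match. Matches can overlap, as in ISG15, where they begin 113 and 107 bases before the start.
ISG15, chr1:1013247-1013496, plus strand: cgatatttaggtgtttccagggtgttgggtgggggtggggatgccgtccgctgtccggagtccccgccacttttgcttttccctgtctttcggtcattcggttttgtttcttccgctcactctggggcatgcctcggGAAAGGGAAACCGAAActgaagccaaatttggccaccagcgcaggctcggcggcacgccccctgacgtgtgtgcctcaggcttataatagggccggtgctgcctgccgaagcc
IFIT1, chr10:89392373-89392622, plus strand: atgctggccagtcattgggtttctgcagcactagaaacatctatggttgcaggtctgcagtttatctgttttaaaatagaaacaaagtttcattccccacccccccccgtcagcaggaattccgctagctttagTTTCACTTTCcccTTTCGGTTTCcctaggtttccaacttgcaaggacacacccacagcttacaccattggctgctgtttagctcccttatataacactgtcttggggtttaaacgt
IFI6, chr1:27672193-27672442, minus strand: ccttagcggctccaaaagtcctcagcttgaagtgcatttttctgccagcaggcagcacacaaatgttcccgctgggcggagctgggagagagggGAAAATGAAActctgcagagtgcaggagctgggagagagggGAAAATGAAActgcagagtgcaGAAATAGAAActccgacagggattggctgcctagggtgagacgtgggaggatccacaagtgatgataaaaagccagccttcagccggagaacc
IFIH1, chr2:162318685-162318934, minus strand: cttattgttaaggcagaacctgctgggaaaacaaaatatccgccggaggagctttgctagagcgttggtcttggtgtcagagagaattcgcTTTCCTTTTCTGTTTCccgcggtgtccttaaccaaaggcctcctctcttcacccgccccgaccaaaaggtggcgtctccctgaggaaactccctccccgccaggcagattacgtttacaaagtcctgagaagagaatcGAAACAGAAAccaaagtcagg
IRF1, chr5:132490774-132491023, minus strand: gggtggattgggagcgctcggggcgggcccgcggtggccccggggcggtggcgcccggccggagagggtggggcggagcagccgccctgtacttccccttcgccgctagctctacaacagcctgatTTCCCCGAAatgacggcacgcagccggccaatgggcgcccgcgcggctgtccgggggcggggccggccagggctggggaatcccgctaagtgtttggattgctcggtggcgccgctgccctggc
A match in these letters is a description of the sequence and not evidence of binding. Of the tested genes with a promoter entry, 304 had an ISRE core and 9718 had none. JMC45 libraries were called lower for 83.9% of each set, with median log2 changes of -1.21 and -1.14.

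The deposited values are TPM, each transcript's share of the library after correction for its length, a unit that keeps no sequencing depth. Depth is therefore unknown. The 14018 genes whose TPM averaged 1 or more were tested on log2(TPM + 1) with limma, and a gene was said to rise or fall when its Benjamini-Hochberg adjusted p over all of them was below 0.05. By that rule 80.7% of all genes tested fell in JMC45 and 4.25% rose, and the log2 change of the median gene was -1.10. The median was -0.02 after median-ratio scaling, which divides each library by the median ratio of its genes to their mean level, and 0.02 after quantile normalization. The mitochondrially encoded genes took 20.12% and 20.44% of TPM in vehicle and 26.62% and 29.31% in JMC45. A fall on TPM is thus a smaller share of the library. The amount of RNA per cell was not measured, so less of a transcript and more of the others cannot be told apart. All 10 luminal prostate markers were present, at a mean TPM of 16.7 or more. On TPM all 10 fell, beside 80.7% of all genes tested, with a median of -2.15. After median-ratio scaling 6 of the 10 fell and 3 rose, beside 35.5% and 34.9% of all genes tested. All 10 leukocyte and all 6 endothelial markers had a mean TPM below 1, with summed levels of 2.30 to 2.75 and 0.25 to 0.46 TPM per library, and CD3E, LILRA4 and CLEC4C at 0 in every library. Of 8 fibroblast markers 4 reached a mean TPM of 1 (LUM 4.14, TAGLN 2.17, COL1A1 2.00 and ACTA2 1.97), and the list summed to 10.72 to 12.39 TPM per library. Of these 4 markers 1 fell on TPM and 3 rose after median-ratio scaling, beside 80.7% and 34.9% of all genes tested. Their part in the results was not tested.

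The 9 genes fell into 2 sets by level. STAT2, IRF1, IRF3, IRF9, IFIH1 and ISG15 reached a mean TPM of 1 and were tested. IFIT1, IFI6 and IFI27 were below it. All 6 tested genes fell on TPM, beside 80.7% of all genes tested, with a median log2 change of -1.32 beside -1.10. The groups did not overlap for any of the 6, a pattern seen with JMC45 lower for 85.7% and with JMC45 higher for 6.28% of all genes tested. After median-ratio scaling 4 fell (35.5% of all genes tested) and 2 rose (34.9%). IRF1, IRF9 and IFIH1 passed the filter only through their vehicle values, so that they were bound to differ, and these counts carry no weight for the 9 genes as a set. By mean TPM the vehicle order was ISG15, IRF3, STAT2, IRF1, IFIH1, IRF9, IFI6, IFI27 and IFIT1, in which the libraries of IRF1, IFIH1 and IRF9 overlapped each other and those of the other neighbours did not. In JMC45 the order was ISG15, IRF3, STAT2, IFI6, IRF9, IFIH1, IFI27, IRF1 and IFIT1. IFI6 there lay above IRF9, IFIH1 and IRF1 in both libraries, and the values of IFI27 spanned those of all 4 genes beside it in the order, IRF9, IFIH1, IRF1 and IFIT1.

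**Figure D1:**
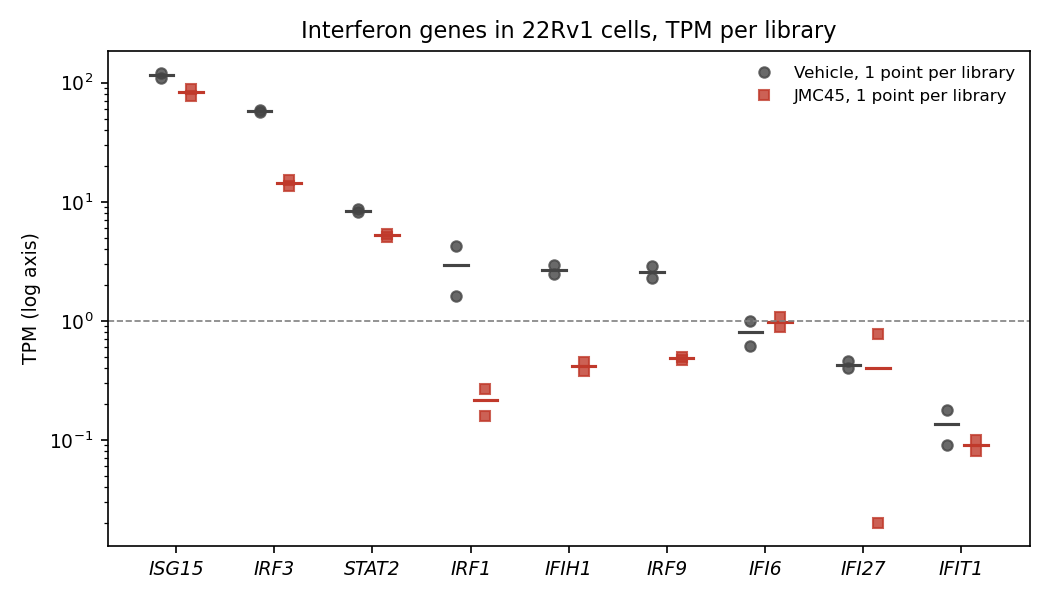
TPM of each of the 9 genes on a log axis, with 1 point per library (circles vehicle, squares JMC45), short bars at the mean of 2 libraries and a dashed line at 1 TPM. From ISG15 to IRF9 the JMC45 points lie below the vehicle points, whereas for IFI6, IFI27 and IFIT1 the groups overlap.

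Among the signal transducers, STAT2 and IRF9 differed in how far they fell. STAT2, the transactivating subunit of ISGF3, measured 8.69 and 8.20 TPM in the vehicle libraries and 5.34 and 5.09 TPM in the JMC45 libraries. Both JMC45 values lay below both vehicle values, and the mean went from 8.45 ± 0.346 to 5.21 ± 0.177 TPM (SD, n = 2). The log2 change was -0.60 (SE 0.11, limma adjusted p = 0.00293), smaller in size than that of the median gene, and 71.3% of tested genes had a lower value. The direction turned after median-ratio scaling (0.57, limma adjusted p = 0.00281) and after quantile normalization (0.76, limma adjusted p = 0.00128). IRF9, the DNA-binding subunit of ISGF3, measured 2.89 and 2.27 TPM in vehicle and 0.47 and 0.50 TPM in JMC45, and the JMC45 libraries were again both lower. The mean fell to 18.8% of vehicle. Its log2 change was -1.26 (SE 0.16, limma adjusted p = 0.000468), or -2.19 with a pseudocount of 0.1, which compresses low values less. It was -0.55 after median-ratio scaling and -0.24 after quantile normalization, where it was not called (limma adjusted p = 0.173). A same-strand readthrough gene shares 1838 exonic bases with IRF9 in GENCODE 29 and had 0.93 and 1.11 TPM in vehicle and 0.38 in both JMC45 libraries, so the split of reads between them is uncertain.

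IRF3 was the abundant regulatory factor and IRF1 a scarce one, and both fell. IRF3, which is present before infection and is activated by phosphorylation, measured 59.34 and 57.25 TPM in vehicle and 15.15 and 13.65 TPM in JMC45. The groups were far apart compared with the spread within each, with means of 58.3 ± 1.48 and 14.4 ± 1.06 TPM. Its log2 change of -1.95 (SE 0.09, limma adjusted p = 1.23e-05) was the largest decrease on this scale among the 6 tested genes, and 16.8% of tested genes had a lower value. IRF3 also fell after median-ratio scaling (-0.64, limma adjusted p = 0.000998) and after quantile normalization (-0.88, limma adjusted p = 0.000374). It was the only gene of the 6 called lower under all 5 scalings tried. IRF3 overlaps the apoptosis gene BCL2L12 on the opposite strand over 734 exonic bases in GENCODE 29, and BCL2L12 had 62.78 and 58.37 TPM in vehicle and 19.66 and 18.88 TPM in JMC45. The library kit kept strand, but no source used here says whether the quantification used it, so reads of the pair may not be fully separated.

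IRF1, an inducible factor that activates interferon-stimulated genes and antigen presentation, measured 4.25 and 1.63 TPM in vehicle and 0.16 and 0.27 TPM in JMC45. The ratio between the vehicle libraries was larger than for any other tested gene of the 9, but even the lower lay above both JMC45 libraries. The mean fell from 2.94 ± 1.85 to 0.215 ± 0.0778 TPM, 13.7-fold as a ratio of means and the largest ratio among the 6. On the log2(TPM + 1) scale, which understates changes at such levels, the change was -1.61 (SE 0.33, limma adjusted p = 0.00397), and it was -3.14 with a pseudocount of 0.1. Without vehicle replicate 1 it was -1.12 and without vehicle replicate 2 it was -2.11. It was -1.01 after median-ratio scaling (limma adjusted p = 0.0116) and was not called after quantile normalization (-0.60, limma adjusted p = 0.107). IRF1 shares exonic bases with 2 genes on the opposite strand in GENCODE 29, of which AC116366.3 had 7.51 and 5.78 TPM in vehicle and 1.19 and 1.5 TPM in JMC45, so its low values are uncertain if strand was not used.

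IFIH1, which encodes the sensor of long double-stranded RNA MDA5, measured 2.92 and 2.46 TPM in vehicle and 0.45 and 0.38 TPM in JMC45. The groups did not overlap, and the JMC45 mean was 15.4% of the vehicle mean. The log2 change was -1.38 (SE 0.15, limma adjusted p = 0.000257) and -2.44 with a pseudocount of 0.1. It was -0.69 after median-ratio scaling (limma adjusted p = 0.00529) and -0.35 after quantile normalization, where it was not called (limma adjusted p = 0.0595).

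The 4 interferon-stimulated effectors stood at very different levels, although an ISRE core precedes each of them. ISG15, a ubiquitin-like protein conjugated to other proteins, measured 120.08 and 110.25 TPM in vehicle and 87.81 and 78.01 TPM in JMC45. It was the most abundant of the 9 genes in every library, above 92.4% of tested genes by its vehicle mean and above 93.1% by its JMC45 mean. The mean went from 115 ± 6.95 to 82.9 ± 6.93 TPM, to 72.0% of vehicle. Its log2 change of -0.47 (SE 0.08, limma adjusted p = 0.00232) was the smallest of the 6, and 76.3% of tested genes had a lower value. After median-ratio scaling ISG15 rose, from scaled values of 70.8 and 73.2 to 137 and 127 (log2 change 0.87, limma adjusted p = 0.000221), and after quantile normalization it was not called (0.13, limma adjusted p = 0.149).

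The other effectors were close to the lower end of what the table lists. IFIT1, an RNA-binding protein that blocks translation of viral RNA, was at 0.18 and 0.09 TPM in vehicle and 0.10 and 0.08 TPM in JMC45. IFI6, a membrane protein of the endoplasmic reticulum and mitochondria, was at 0.62 and 1.00 TPM in vehicle and 0.89 and 1.08 TPM in JMC45. IFI27, a related small hydrophobic protein, was at 0.46 and 0.40 TPM in vehicle and at 0.78 and 0.02 TPM in JMC45. For all 3 the groups overlapped, and for IFI27 the JMC45 libraries lay on either side of both vehicle libraries. In the fit without the filter on low values, where 44.6% of 31100 genes fell and 2.45% rose, limma called none of the 3, and none had an unadjusted p below 0.05. The log2 changes were -0.06 for IFIT1 (SE 0.06, adjusted p = 0.472), 0.14 for IFI6 (SE 0.17, adjusted p = 0.549) and -0.09 for IFI27 (SE 0.30, adjusted p = 0.838). Per length, ISG15 in vehicle was above each of them by far more than the spread between libraries, in the order ISG15, IFI6, IFI27 and IFIT1 by group mean in both groups.

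**Figure D2:**
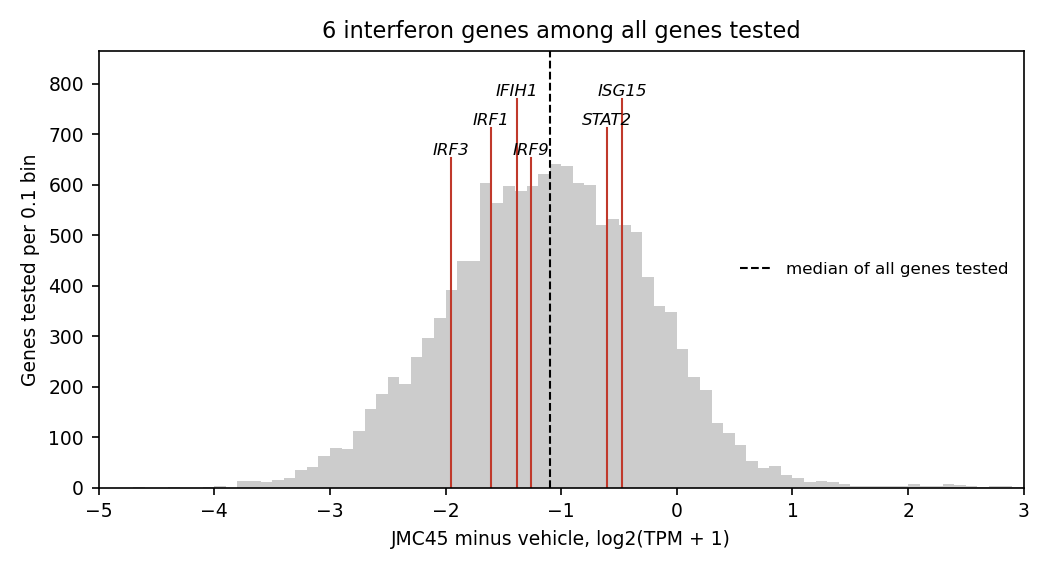
Histogram of the log2(TPM + 1) change, JMC45 minus vehicle, of the 14018 genes tested in bins of 0.1, with red lines at the 6 tested interferon genes and a dashed line at the median of -1.10. IRF3, IRF1, IFIH1 and IRF9 lie on the lower side of the median and STAT2 (-0.60) and ISG15 (-0.47) on its upper side.

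Relative to the median gene, the 6 genes parted into 2 directions. IRF3 (-0.85), IRF1 (-0.51), IFIH1 (-0.28) and IRF9 (-0.16) lay below it, and STAT2 (0.50) and ISG15 (0.63) above it. Median-ratio scaling brings the median gene close to 0, and the sign of each of the 6 genes after it was that of this position. The pseudocount of 1 is added after scaling, so the sign need not follow. Several genes of the pathway lists described below did not match. Examples picked after their values were seen are IFNGR1 (-0.04 from the median gene, 0.12 after scaling), MX1 (0.21 and -0.06) and HELZ2 (0.05 and -0.41). With the mitochondrially encoded genes left out all 6 fell, beside 76.4% of all genes that fell and 6.01% that rose. With the summed TPM of those genes held equal all 6 fell, beside 90.5% and 1.29%.

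**Figure D3:**
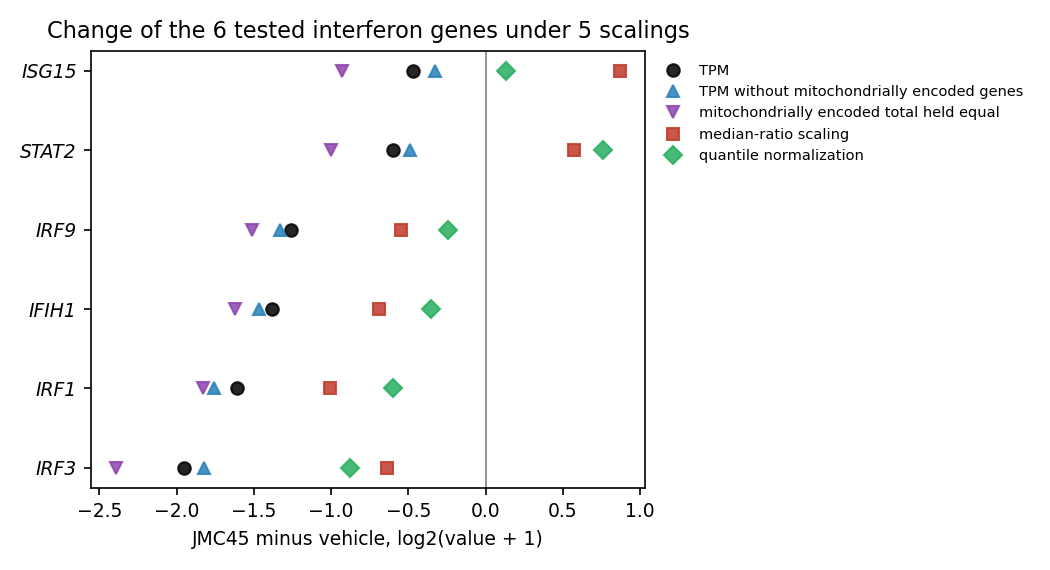
Log2 change of the 6 tested genes, JMC45 minus vehicle, under 5 scalings, 1 symbol per scaling, with a vertical line at 0. STAT2 and ISG15 cross to the right of 0 after median-ratio scaling (0.57 and 0.87) and quantile normalization (0.76 and 0.13), and the other 4 genes stay to the left of it.

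The rest of the pathway was read from 6 lists by role. Of their 66 tested genes, 18 had a JMC45 mean below 1 TPM and so passed the filter only through vehicle, which tilts the counts of these lists toward decreases. Without the filter, 6 further genes were called by limma: RIGI, TLR3, IFI44 and MX2 were lower in JMC45, and IFNA5 and ZBP1 were higher. In that fit 44.6% of 31100 genes fell and 2.45% rose. TYK2, TRAF3 and PTPN11, called lower with the filter, were not called in it (limma adjusted p = 0.119, 0.0969 and 0.0659). None of the 10 interferon ligand genes on the list reached a mean TPM of 1, and 7 were listed at 0 in all 4 libraries. Interferon genes outside this list were not looked up. IFNB1, the beta interferon gene that IRF3 controls, was listed at 0 in 3 libraries and at 0.06 TPM in JMC45 replicate 2. IFNA5, the highest of the 10, was at 0.06 and 0 TPM in vehicle and at 0.34 and 0.23 TPM in JMC45, a gene singled out after its values were seen. Below the filter it was not in the main test, and in the fit of TPM without the filter it rose (log2 change 0.32, SE 0.07, limma adjusted p = 0.0255). All its values were far below 1 TPM and depth is unknown, so this rise is uncertain.

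The receptors and kinases that receive interferon were expressed, and 8 of 9 fell and none rose, beside 80.7% and 4.25% of all genes tested. Their median change was -1.14, beside -1.10. IFNAR1, a chain of the type I interferon receptor, went from 47.1 ± 7.11 to 8.97 ± 1.09 TPM (log2 change -2.27, limma adjusted p = 2.51e-05). IFNGR2 and IL10RB, chains of the type II and type III receptors, changed by -1.73 and -1.52, and the type III chain IFNLR1 by -1.44. IFNLR1, with a JMC45 mean of 0.67 TPM, passed the filter only through vehicle, so its lower JMC45 mean was built in. The call of IL10RB was lost after median-ratio scaling (-0.36, limma adjusted p = 0.0775) and quantile normalization (-0.15, limma adjusted p = 0.418), and that of IFNLR1 after quantile normalization (-0.37, limma adjusted p = 0.0576). JAK1, a kinase shared by these receptors, was not called (2.16 and 1.56 TPM in vehicle, 1.90 and 0.67 TPM in JMC45), although it was without JMC45 replicate 1 (-0.77, limma adjusted p = 0.0324). After median-ratio scaling 3 of the 9 fell and 2 rose, beside 35.5% and 34.9% of all genes tested.

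Of 12 tested genes among the other STATs and interferon regulatory factors 11 fell and none rose, with a median of -1.21. Of all genes tested 80.7% fell and 4.25% rose. A JMC45 mean below 1 TPM was found for 4 of the 12, which passed the filter only through vehicle. Median-ratio scaling gave 5 that fell and 3 that rose, beside 35.5% and 34.9%. The largest decreases were those of a repressor and its partners. IRF2, which represses interferon-responsive promoters, went from 6.49 ± 0.0566 to 0.41 ± 0.0424 TPM (-2.41, limma adjusted p = 2.15e-05). Its corepressors IRF2BP1 and IRF2BP2 changed by -3.27 and -3.01, and their relative IRF2BPL by -2.27. Each of these 4 also fell after median-ratio scaling, by 1.61, 2.32, 1.85 and 1.26 for IRF2, IRF2BP1, IRF2BP2 and IRF2BPL. IRF2 and IRF2BP1, with JMC45 means of 0.41 and 0.73 TPM, passed the filter only through vehicle. Their lower JMC45 means on TPM were thus built in. IRF7, the factor that amplifies the type I response, was not called (2.42 and 0.91 TPM in vehicle, 0.77 and 1.01 TPM in JMC45), and its groups overlapped. It was called lower without vehicle replicate 2 (-0.86, limma adjusted p = 0.0104) and when the mitochondrially encoded total was held equal (-0.69, limma adjusted p = 0.0413), and was at -0.02 without vehicle replicate 1.

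All 13 tested genes of the nucleic acid sensors and their adaptors fell, beside 80.7% of all genes tested, with a median of -1.47. Under median-ratio scaling 6 fell and 2 rose, beside 35.5% and 34.9%. MAVS, the mitochondrial adaptor through which MDA5 signals, went from 12.0 ± 0.933 to 2.13 ± 0.0212 TPM (-2.05, limma adjusted p = 2.65e-05). RNF135, a ubiquitin ligase of the related sensor RIG-I, changed by -1.79 and the ligase TRAF6 by -1.61. TRAF6, with a JMC45 mean of 0.47 TPM, passed the filter only through vehicle, so its lower JMC45 mean was built in. The DNA-sensing pair CGAS and STING1, singled out after their values were seen, did not exceed 0.03 and 0.07 TPM in any library.

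Of 43 other interferon-stimulated effectors only 22 reached a mean TPM of 1. Among these 18 fell and none rose, beside 80.7% and 4.25% of all genes tested, with a median of -1.09. PARP9 and DTX3L, which form a complex, went from 25.5 ± 2.16 to 5.38 ± 0.0141 TPM and from 19.0 ± 1.36 to 5.08 ± 0.184 TPM (-2.05 and -1.72). The restriction factor TRIM5 changed by -1.70 and SHISA5 by -1.54, and the call of SHISA5 was lost after median-ratio scaling (-0.22, limma adjusted p = 0.106). The 4 that were not called, named after their values were seen, were IFITM2 (-0.10), IFITM3 (-0.06), BST2 (-0.23) and LY6E (-0.27), of which the first and second restrict virus entry and BST2 tethers budding virions. All 4 rose after median-ratio scaling, as ISG15 did, and the close sequence of the IFITM genes makes their separate values uncertain. In all, 7 of the 22 fell and 5 rose after that scaling, beside 35.5% and 34.9% of all genes tested. Of the 35 effectors with a promoter entry 22 (62.9%) held an ISRE core in at least 1 window. The 3.02% given above is a share of single windows and so a different measure. Of the 13 of these 22 effectors that were tested 11 fell. The share that fell was 83.9% both for tested genes with an ISRE core and for those without. IFIT2 and IFIT3, relatives of IFIT1, did not exceed 0.21 and 0.12 TPM in any library.

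The negative regulators fell as well: all 10 tested genes were called lower, beside 80.7% of all genes tested, with a median of -1.75. Under median-ratio scaling 7 fell and 1 rose, beside 35.5% and 34.9%. The phosphatase PTPN6 went from 21.5 ± 0.304 to 3.24 ± 0.127 TPM (-2.41, limma adjusted p = 1.2e-05) and the phosphatase PTPN1 changed by -1.93. PIAS1, a SUMO ligase, changed by -1.88. USP18, the protease that removes ISG15 from its targets and blocks the type I receptor, went from 15.5 ± 0.7 to 3.54 ± 0.24 TPM (-1.86, limma adjusted p = 2.67e-05). The feedback inhibitors SOCS1 and SOCS3 were below a mean TPM of 1.

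**Figure D4:**
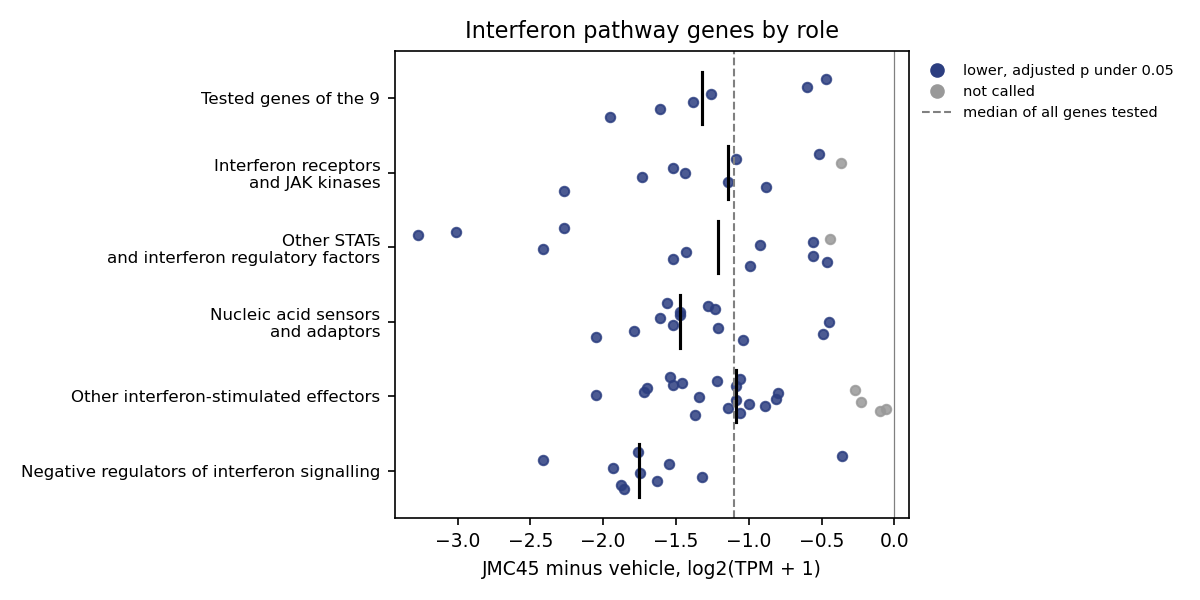
Log2(TPM + 1) change, JMC45 minus vehicle, of each tested gene of the 9 and of 5 lists by role (the ligands had no tested gene), with 1 point per gene, blue where called lower and grey where not called, bars at list medians and a dashed line at the median of all genes tested. Points are spread vertically only to keep them apart. No point lies to the right of 0, and the medians run from -1.09 for the effectors to -1.75 for the negative regulators.

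Over the 6 lists, 60 of 66 tested genes fell on TPM by limma and none had a value above 0, and 28 fell and 13 rose after median-ratio scaling, beside 80.7% and 4.25%, and 35.5% and 34.9%, of all genes tested. After quantile normalization 23 fell and 13 rose, beside 32.8% and 33.6%. Among these 66 genes, the profile over the 4 libraries closest to that of STAT2 was that of STAT5B (root mean square distance 0.032 on the log2 scale, each gene centred on its mean), which was also the closest to ISG15 (0.069). OAS3 was closest to IRF9 (0.036), CMPK2 to IFIH1 (0.046) and PTPN1 to IRF3 (0.060). For IRF1 the closest gene, TRAF6, was farther away (0.231). With 4 libraries in 2 groups, such distances reflect mainly how far each gene fell.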

How the data were processed

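Poly(A)-selected RNA of 22Rv1 cells was sequenced in 4 libraries, 2 per group. The authors deposited 1 table of TPM per Ensembl gene and library, per the file headers. Tools named in the submitters' processing notes are fastp, HISAT2 and StringTie, with no version. Genome build, annotation and strand setting: not given in the sources used here. TPM keeps no depth, so no counting interval is given. Columns headed as control were taken as vehicle by name and number.

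Of the table, 63241 genes were read and 50 lines without values were left out. Symbols matched 62666 genes. The 14018 genes averaging 1 TPM or more were tested as log2(TPM + 1) with limma 3.58.1 (R 4.3.3), in a two-sided test with an intensity trend, no replicate block and Benjamini-Hochberg adjustment (threshold 0.05). The fit was also run on simulated data in which few genes changed, as many up as down. Most genes fell in the real data, so that run is no check of the calls here. Alternatives were a pseudocount of 0.1, no filter, a mean of 5 TPM, median-ratio scaling, quantile normalization, TPM without mitochondrially encoded genes, their total held equal, no intensity trend, a replicate block, and each library left out. The filter used deposited TPM throughout. Summaries and figures used Python 3.11.15, pandas 2.3.3 and matplotlib 3.10.9.

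The 9 genes and the lists were chosen with earlier results of these data known. All 9 are named, and from each list up to 4 called genes with the largest absolute change, any called gene that rose, and those not called where 3 or fewer were not. A gene that this rule named is not reported here. Per tested gene of the 9, the list gene with the closest profile is named. Promoter sequences are RefSeq's (GRCh38.p14), matched by symbol. Exon overlaps come from GENCODE 29 and are used as properties only.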

Additional observations from a re-analysis of the deposited data

How the results depend on the processing

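Scaling decided most of what moved. The number of all genes called lower went from 11311 to 4981 after median-ratio scaling and 4603 after quantile normalization, and the number called higher from 596 to 4888 and 4716, or to 181 when the mitochondrially encoded total was held equal. Of the 9 genes, 6 were called lower on TPM and none higher, beside 80.7% and 4.25% of all genes tested. There were 3 called lower at a mean TPM of at least 5, which tests fewer of them, beside 7554 of all 9110 genes tested there. After quantile normalization 1 was called lower and 1 higher, beside 32.8% and 33.6% of all genes tested. After median-ratio scaling 2 were called higher, beside 34.9% of all genes tested. The changes that turned sign were those of STAT2 (0.57 after median-ratio scaling and 0.76 after quantile normalization), ISG15 (0.87 and 0.13), JAK1 (0.42 and 0.70) and IRF7 (0.29 and 0.57). JAK1 ranged from -0.77 to 0.03 and IRF7 from -0.86 to -0.02 over the libraries left out in turn. These genes fell by less than the median gene on TPM, which these 2 scalings bring close to 0. Leaving out any 1 library kept all 6 genes called lower. There the lone library of a group is assumed to vary like the others. The replicate number is shared across groups, and the correlation of same-numbered deviations was -0.0471 over 14018 genes with 2 pairs. With so few pairs this value cannot show whether same-numbered libraries were handled together. With the replicate block, 11380 genes were called lower, 613 higher, and the same 6 of the 9 genes lower. Of 75 alternative values for the 6 genes, 68 kept direction and call, 3 kept direction and lost the call, and 4 turned. Depth is unknown, and all values of IFIT1 and IFI27 were below 1 TPM.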
